A study of Mus musculus with 6 samples.

Results

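The AP-1 transcription factor is built from Fos and Jun proteins, and their 7 genes, Fos, Fosb, Fosl1, Fosl2, Jun, Junb and Jund, were followed through the postnatal day 7 (P7) mouse cortex. They were found by gene symbol among the 24972 genes of the deposited table, and all 7 were among the 15800 genes with enough signal to be tested. The family was selected on measured values, since the differences of Fos and Fosb between the groups in these same 6 libraries were known when it was chosen. The members' own differences are therefore given as a description, with no test. RNA-seq had been performed on dissected cortex from 3 wildtype libraries, from Zmiz1 f/f mice without Cre, and 3 libraries labelled Zmiz1-KO, from Zmiz1 f/f;Emx1-Cre mice. Both groups carry the floxed Zmiz1 alleles, so the wildtype libraries are floxed controls. Emx1-driven Cre acts in the progenitors of cortical excitatory neurons and astrocytes, and interneurons, microglia and vessels of the same tissue keep Zmiz1. The comparison asks which transcripts differ at P7 after Zmiz1, which encodes a transcriptional co-regulator of the PIAS family, is deleted in cortical progenitors.

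AP-1 proteins are basic leucine zipper (bZIP) factors that bind DNA as dimers. Jun proteins pair with each other or with Fos proteins, whereas Fos proteins need a Jun partner to form a stable dimer on DNA. In neurons, Fos, Fosb and Junb are immediate early genes, transcribed within minutes of calcium or growth factor signaling through CREB and serum response factor, and Fos is widely used as a mark of recently active cells, while Jund is expressed steadily in most cells.

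The promoters of Fos and Fosb, the members with the largest differences, and of the Jun genes Jun and Junb are shown for the letters that CREB and the basal machinery are known to bind. Each is the stretch of 250 bases before the RefSeq start (GRCm38.p6), written 5′ to 3′ on the strand of the gene, with the motif matches of either strand in capitals. Fos is at chr12:85473640-85473889 on the plus strand, and Fosb at chr7:19310046-19310295, Jun at chr4:95052223-95052472 and Junb at chr8:84978749-84978998 are on the minus strand.
Fos: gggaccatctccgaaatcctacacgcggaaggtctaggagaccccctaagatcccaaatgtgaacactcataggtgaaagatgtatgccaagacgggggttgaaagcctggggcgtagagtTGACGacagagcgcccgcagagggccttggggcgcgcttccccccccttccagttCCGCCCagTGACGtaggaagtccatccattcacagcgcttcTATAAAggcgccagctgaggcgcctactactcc
Fosb: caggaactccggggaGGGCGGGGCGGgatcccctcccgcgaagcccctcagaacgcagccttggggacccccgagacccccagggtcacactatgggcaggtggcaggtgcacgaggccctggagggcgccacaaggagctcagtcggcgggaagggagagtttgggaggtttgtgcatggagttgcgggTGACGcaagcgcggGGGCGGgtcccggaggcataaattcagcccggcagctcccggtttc
Jun: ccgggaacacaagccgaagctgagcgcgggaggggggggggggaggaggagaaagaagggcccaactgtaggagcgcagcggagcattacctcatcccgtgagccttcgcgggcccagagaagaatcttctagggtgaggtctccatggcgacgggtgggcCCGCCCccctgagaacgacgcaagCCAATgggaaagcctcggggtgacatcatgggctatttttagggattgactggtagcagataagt
Junb: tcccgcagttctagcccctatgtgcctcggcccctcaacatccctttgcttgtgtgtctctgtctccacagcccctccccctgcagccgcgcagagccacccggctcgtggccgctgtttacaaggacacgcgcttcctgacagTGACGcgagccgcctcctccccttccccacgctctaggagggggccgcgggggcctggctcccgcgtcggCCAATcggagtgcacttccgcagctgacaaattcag

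The core of the cAMP response element, TGACG, occurred at -129 to -125 and at -66 to -62 of Fos, where positions count backwards from the RefSeq start, at -60 to -56 of Fosb and at -106 to -102 of Junb, and not in the window of Jun. These letters were present on either strand in 17.8% of 32851 mouse promoter windows of the same length. The TATA box TATAAA was found in Fos only among these 4, at -33 to -28, and in 12.4% of all windows. GC boxes, GGGCGG, were found once in Fos and Jun and at 3 places in Fosb, of which the pair at -235 and -230 overlaps, against 32.7% of all windows with at least 1. CCAAT was found in Jun at -65 and in Junb at -36, and in 33.9% of all windows. The AP-1 site itself, TGANTCA, and the CArG box of serum response factor were found in none of the 4 windows, and in 6.75% and 1.47% of all windows. Only the letters named here were searched, so related forms, such as tgacatca in the window of Jun, were left in lower case. A match describes letters in the window and not a site that was measured. Bases outside the windows, such as those further upstream, were not searched. A missing match, as for the CArG box, therefore cannot show that a gene lacks the site.

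The 6 libraries were similar in depth, with an estimated 15494888 to 17858395 counted reads each. Zmiz1 was higher, not lower, in the Zmiz1-KO-labelled libraries, with 8119, 7929 and 7461 normalized counts in wildtype and 9944, 9779 and 9660 in the Zmiz1-KO-labelled libraries (log2 fold change 0.32, limma adjusted p = 0.00125). The table gives 1 value per gene over all its exons, so reads from the floxed exons alone were not seen, and every direction below is that of the labels. Emx1, the gene whose control drives Cre and named after its values were seen, was lower under the same label, at 763 ± 67.6 in wildtype and 529 ± 55.1 (SD, n = 3 each; -0.53 on the log2 scale, limma adjusted p = 0.0150). Xist marked wildtype replicate 3 (25307) and replicate 2 labelled Zmiz1-KO (24403) as the libraries with female RNA, against 12.9 to 57.3 in the others. The markers of cortical excitatory neurons summed to between 36099 and 42314 in wildtype and between 34785 and 37256 in the Zmiz1-KO-labelled libraries, with none of the 6 at 0. In bulk tissue, fewer cells of a type and less RNA per cell cannot be told apart.

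Fos, the best known inducible member, was 1.93-fold higher under the Zmiz1-KO label. It had 175, 229 and 222 in wildtype replicates 1, 2 and 3 (normalized counts), and 380, 402 and 424 in the Zmiz1-KO-labelled libraries, equal to about 87 to 109 and 192 to 220 reads. The lowest library labelled Zmiz1-KO lay 65.8% above the highest wildtype library, so the groups did not overlap. The means were 209 ± 29.4 and 402 ± 22.0 (SD, n = 3 each), a log2 fold change of 0.95 (SE 0.12). Within groups, Fos varied by 14.1% of the mean in wildtype and 5.47% in the Zmiz1-KO-labelled libraries, where counting alone gives 9.98% and 6.96%. Wildtype replicate 1 was the lowest of all, and without it the log2 fold change was 0.83. Fos lies on chromosome 12 of GRCm38 from 85473890 to 85477273, has up to 4 exons, and shares no stretch of 75 bases with the transcripts of another gene.

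Fosb, the closest relative of Fos and the source of the long-lived ΔFosB protein, showed a difference of the same size at a much lower level. It had 43.7, 61.0 and 49.6 normalized counts in wildtype and 103, 88.0 and 122 in the Zmiz1-KO-labelled libraries, or 22 to 29 and 48 to 61 reads. All 3 libraries labelled Zmiz1-KO were above all 3 wildtype libraries, with a gap of 44.1% between the nearest. The means were 51.4 ± 8.79 and 104 ± 17.2 (SD, n = 3 each), and the log2 fold change was 1.01 (SE 0.21). The spread within groups, 17.1% and 16.4%, is near the 20.1% and 13.7% that counting alone gives at this depth. Fosb lies on chromosome 7 from 19302696 to 19310051 on the minus strand, and shares no stretch of 75 bases with the transcripts of another gene.

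Fosl1, which encodes Fra-1 and is a gene of growth factor and injury responses, did not separate the groups. Its values were 127, 107 and 116 in wildtype and 145, 116 and 151 in the Zmiz1-KO-labelled libraries. Replicate 2 labelled Zmiz1-KO fell within the wildtype range, while the other 2 were above it. The means of 116 ± 9.82 and 137 ± 18.9 (SD, n = 3 each) differed by 0.23 on the log2 scale (SE 0.16). Of its transcript stretches of 75 bases, 50.2% overlap Ccdc85b on the opposite strand of chromosome 19, which had 1896, 1939 and 1930 in wildtype and 1666, 1775 and 1791 in the Zmiz1-KO-labelled libraries (log2 fold change -0.14, limma adjusted p = 0.295). The library kit does not keep the strand, so reads of Fosl1 and Ccdc85b cannot be told apart where they overlap.

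Fosl2, which encodes Fra-2 and is the most abundant Fos gene here, differed little. It had 1751, 1715 and 1582 normalized counts in wildtype and 1887, 1797 and 1827 in the Zmiz1-KO-labelled libraries. The groups did not overlap, but the nearest libraries were 2.62% apart. The means were 1683 ± 89.4 and 1837 ± 45.6 (SD, n = 3 each), a log2 fold change of 0.13 (SE 0.05).

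The 3 Jun genes were all slightly higher in the Zmiz1-KO-labelled libraries. Jun, whose protein is a target of the JNK kinases, had 1427, 1422 and 1375 normalized counts in wildtype and 1472, 1442 and 1566 in the Zmiz1-KO-labelled libraries. The groups were 1.10% apart at the nearest, and replicate 3 labelled Zmiz1-KO stood highest. The log2 fold change was 0.08 (SE 0.05), from 1408 ± 28.4 to 1493 ± 64.8 (SD, n = 3 each).

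Junb, an inducible Jun gene, had 535, 485 and 516 normalized counts in wildtype and 567, 569 and 565 in the Zmiz1-KO-labelled libraries. The libraries labelled Zmiz1-KO were nearly equal, varying by 0.369% where counting alone gives 5.86%, and lay 5.67% above the highest wildtype library. The means of 512 ± 24.9 and 567 ± 2.09 (SD, n = 3 each) differed by 0.15 on the log2 scale (SE 0.08). Junb is thus an inducible member whose difference was much smaller in size than those of Fos and Fosb, and the difference between these differences was not tested.

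Jund, the member with the highest level, had 3397, 3461 and 3522 normalized counts in wildtype and 3746, 3622 and 3728 in the Zmiz1-KO-labelled libraries. Again the groups did not overlap, with a gap of 2.86%. The means were 3460 ± 62.5 and 3699 ± 66.9 (SD, n = 3 each), a log2 fold change of 0.10 (SE 0.04). Jun and Jund each have a single exon. Of the 75-base stretches of Jund, 45.9% overlap the antisense gene Gm11175, of those of Jun 5.07% overlap Junos, and of those of Junb 4.74% overlap Prdx2.

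**Figure D1:**
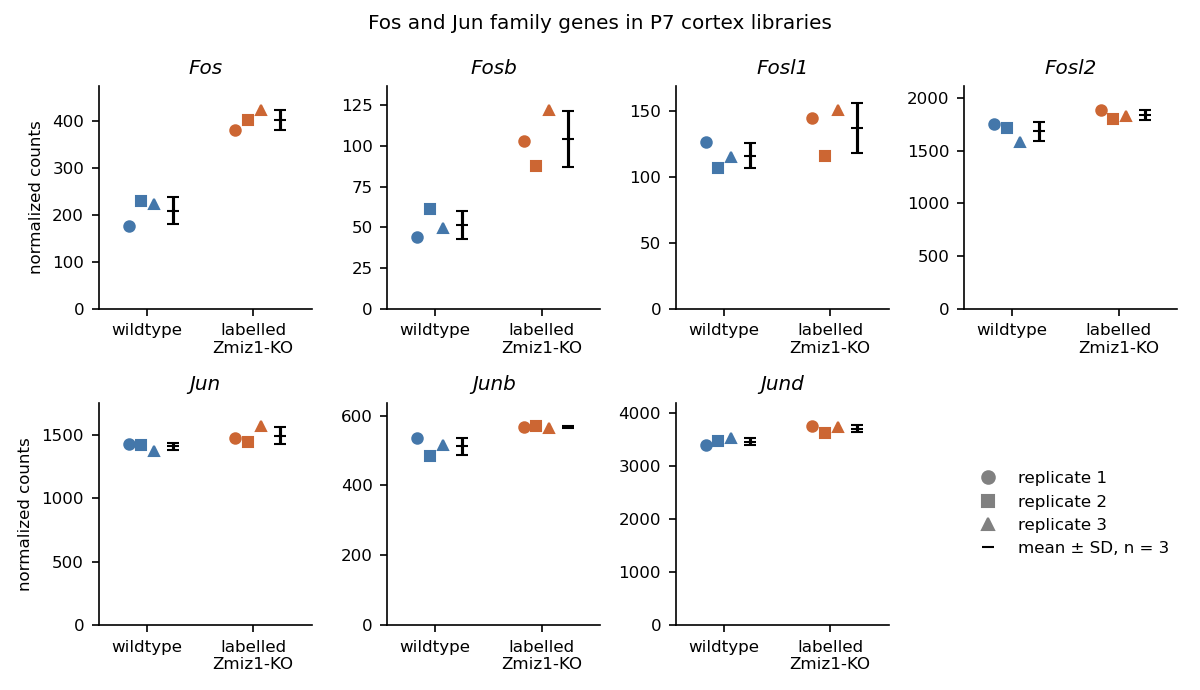
Normalized counts (vertical axes, from 0) of the 7 Fos and Jun genes in 3 wildtype libraries (blue) and 3 libraries labelled Zmiz1-KO (orange), with the mean ± SD of each group in black and 1 symbol per replicate number. Fos and Fosb are set wide apart, at 175 to 229 against 380 to 424 and 43.7 to 61.0 against 88.0 to 122, Fosl1 overlaps, and Fosl2, Jun, Junb and Jund are set apart by small gaps.

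All 7 members were thus higher in the Zmiz1-KO-labelled libraries, with upper-quartile scaling too. In 6 of the 7, every library labelled Zmiz1-KO was above every wildtype library, which was so for 8.1% of all genes tested. The median log2 fold change of the members was 0.15, beside -0.00018 for all genes tested, of which 49.9% were higher. The count of 6 and this median include Fos and Fosb, so neither is independent of the choice of the family. In the fit over all genes 0.411% passed an adjusted p of 0.05, 0.165% as higher and 0.247% as lower. Fos and Fosb, whose differences led to the choice of the family, were the 2 members among these, so nothing is read from this count. Fosb was not among them without wildtype replicate 1 or 3 or without replicate 1 or 3 labelled Zmiz1-KO, where its log2 fold change was 0.90, 0.99, 1.01 and 0.89. Nor was it with no filter, with limma-voom, without robust estimation and with a covariate for Xist.

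**Figure D2:**
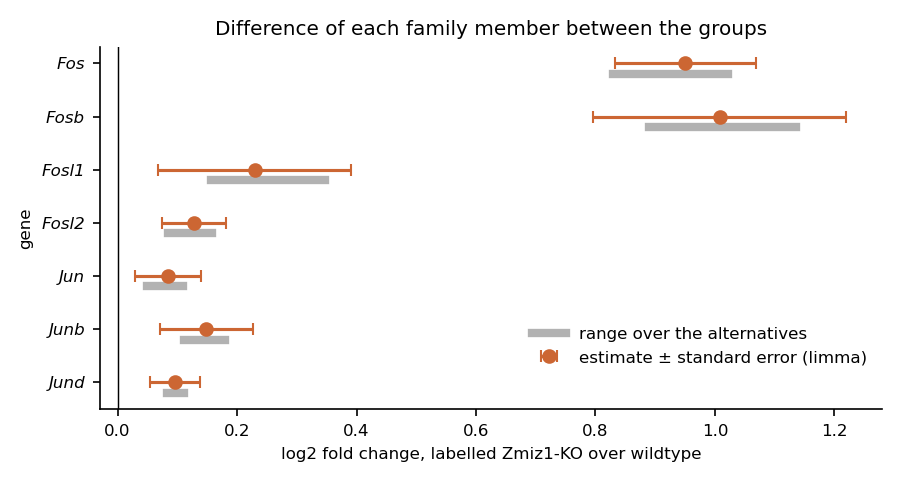
Log2 fold change of each of the 7 genes, libraries labelled Zmiz1-KO over wildtype (horizontal axis), as the limma estimate ± standard error (orange) over the range of the estimate in the 16 alternative settings (grey bars), several of which cannot move it. Fos ranged from 0.83 to 1.02 and Fosb from 0.89 to 1.14, while the other 5 lay between 0.05 and 0.35.

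Per length of exon, the Jun genes outweighed the Fos genes. In wildtype the order was Jund with 2074 ± 37.5 normalized counts per kb, Jun with 441 ± 8.91, Junb with 222 ± 10.8, Fosl2 with 174 ± 9.24, Fos with 88.8 ± 12.5, Fosl1 with 57.3 ± 4.83 and Fosb with 8.24 ± 1.41 (SD, n = 3 each). No neighbours in this order had overlapping ranges over the 3 libraries. The order was the same in the Zmiz1-KO-labelled libraries and with the longest transcript in place of all exons. There Fos was at 171 ± 9.36 per kb of all exons, beside Fosl2 at 190 ± 4.71 and Fosb at 16.7 ± 2.75 (SD, n = 3 each). Per kb of the longest transcript, Fos was at 191 ± 10.4 and Fosl2 at 281 ± 6.98 in the same libraries, so the distance between them depends on the length used. Since 45.9% of Jund and 50.2% of Fosl1 lie over antisense genes, their levels may include reads of those genes or miss reads of their own. How reads in the overlaps were counted is not known here. The place of Fosl1 under Fos in wildtype is therefore not sure.

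**Figure D3:**
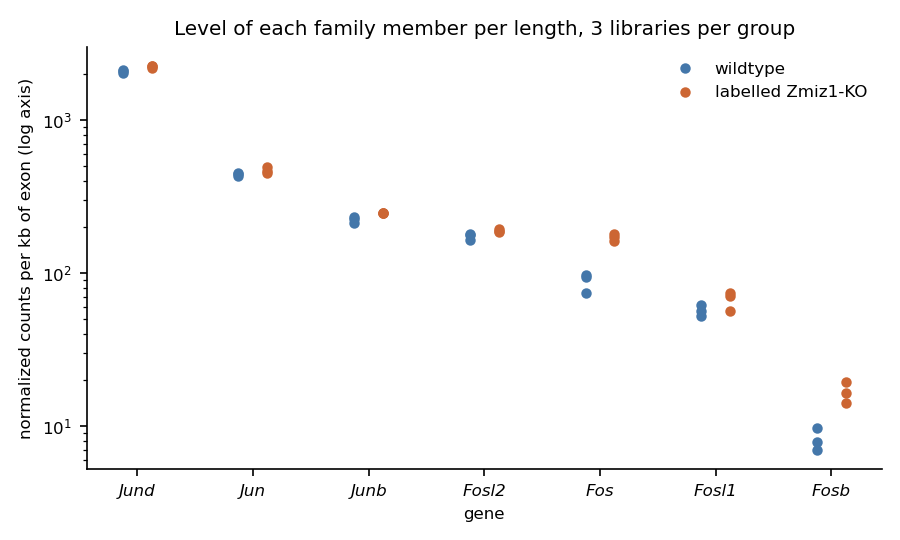
Normalized counts per kb of exon (vertical axis, log scale) of the 7 genes in order of their wildtype mean, with 1 point per library, wildtype in blue and labelled Zmiz1-KO in orange. The levels run from 2074 per kb for Jund to 8.24 for Fosb in wildtype, and Fos is at 88.8 in wildtype and 171 in the Zmiz1-KO-labelled libraries.

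The make-up of the AP-1 transcripts differed accordingly. As a share of the summed level per kb of all 7 genes, Fos and Fosb together made up 2.68%, 3.50% and 3.32% in wildtype replicates 1, 2 and 3, and 5.25%, 5.61% and 5.82% in the Zmiz1-KO-labelled libraries. The 4 Fos genes made up 10.4% to 11.0% in wildtype and 13.0% to 13.5% in the Zmiz1-KO-labelled libraries. Jund alone made up 67.0%, 67.6% and 68.3% in wildtype and 66.1%, 65.8% and 65.1% in the Zmiz1-KO-labelled libraries. The Jun genes therefore remained the bulk of the transcripts in every library, at 86.5% to 89.6%.

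Within groups, the deviations of Fos and Fosb were on balance of the same sign and those of Junb of the opposite sign, with exceptions. After removing the group means, the Pearson correlation over the 6 libraries was 0.69 for Fos and Fosb, -0.80 for Fos and Junb and -0.76 for Fosb and Junb. Replicate 2 labelled Zmiz1-KO, for example, was above replicate 1 in Fos (402 against 380) and under it in Fosb (88.0 against 103). These correlations describe 6 libraries and carry no test. Junb varied by 4.87% of the mean in wildtype and 0.369% in the Zmiz1-KO-labelled libraries, so its correlations rest almost wholly on the wildtype libraries. Over all 6 libraries with the group difference kept, the 5 genes whose log2 values most resembled Fos were Wfs1 (r = 0.994), Rmnd1 (0.993), Hmgb2 (0.991), Pde1b (0.990) and Prrx1 (0.990), among 12781 genes with a mean of at least 100. For Fosb the genes were Ube2q1 (0.996), Dlx6 (0.994), Hpcal4 (0.987), Emp2 (0.986) and Cdca7 (0.983), and for Junb Galnt2 (0.989), Fam149b (0.989), 1110065P20Rik (0.987) and Acaa2 (0.986). A correlation above 0.95 was reached by 68 genes for Fos, 67 for Fosb and 43 for Junb, with the group difference kept in.

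The striatum borders the dissected cortex, and markers of its projection neurons, in which Fos and Fosb are also inducible, moved with the groups. The summed normalized counts of 6 markers of striatal projection neurons, among them the dopamine receptor genes Drd1 and Drd2, were 9224, 11995 and 12655 in wildtype and 13910, 14474 and 12993 in the Zmiz1-KO-labelled libraries. All 6 markers were higher there, 4 of them with no overlap, and none was past the threshold (limma, 2 at an unadjusted p under 0.05), with no marker at 0. Of all genes tested, 8.1% were higher with no overlap, the share to set beside each such count in this paragraph. Wildtype replicate 1 was lowest in this sum, in Fos and in Fosb, whereas replicate 3 labelled Zmiz1-KO was highest in Fos and Fosb and lowest of its group in the sum. Picked after the values were seen, wildtype replicate 3 and replicate 3 labelled Zmiz1-KO had sums of 12655 and 12993. Fos was at 222 and 424 in them, and this pair alone cannot show the part of striatal tissue. The sum of 6 inhibitory neuron markers was 12936, 17129 and 14606 in wildtype and 17287, 19323 and 17815 in the Zmiz1-KO-labelled libraries. All 6 were higher, 2 of them with no overlap, and none was past the threshold (limma, 4 at an unadjusted p under 0.05). Mural and meningeal markers summed to 11087 to 13606 and to 13823 to 14393, with 5 of 6 higher, 4 of them without overlap. Of these Col1a2, a collagen gene of meningeal and mural cells, rose from 4066 ± 244 to 5058 ± 132 (SD, n = 3 each; log2 fold change 0.32, limma adjusted p = 0.00464). The part of these cells in the Fos and Fosb values was not tested. Of 7 heat shock genes, 3 were higher and 0 passed (limma, 0 at an unadjusted p under 0.05). Their sum, 112142 to 115238 and 114552 to 116684, is mostly from the constitutive Hspa8 and Hsp90aa1, while the stress-inducible Hspa1a and Hspa1b were at -0.40 (SE 0.28) and -0.23 (SE 0.85) on the log2 scale, with overlapping groups.

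**Figure D4:**
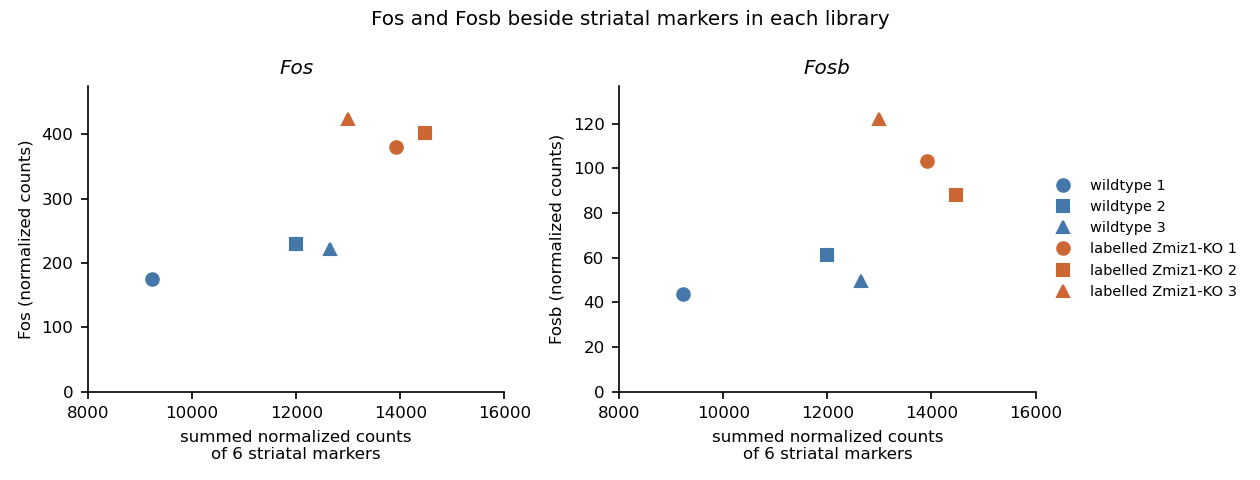
Normalized counts of Fos (left) and Fosb (right) on the vertical axes against the summed normalized counts of 6 striatal markers on the horizontal axes, with 1 point per library, wildtype in blue and labelled Zmiz1-KO in orange. Wildtype replicate 1 is lowest on both axes. Wildtype replicate 3 and replicate 3 labelled Zmiz1-KO, picked after the values were seen, are at 12655 and 12993. Fos is at 222 and 424 in this pair.

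Other bZIP genes whose proteins can pair with Fos or Jun were mostly slightly lower. Of 13 listed genes, 11 were tested, of which 2 were higher and 9 lower (3 and 8 with upper-quartile scaling), with a median log2 fold change of -0.04, and 0 passed (limma, 0 also at an unadjusted p under 0.05 and 0 with limma-voom). The largest differences were those of Maff (0.27, SE 0.29), which overlapped widely, Jdp2 (-0.19, SE 0.10), which represses AP-1, and Mafk (-0.12, SE 0.11). Atf2, named after its values were seen, was the only one whose groups did not overlap (-0.09, SE 0.05). Of all genes tested, 16.3% did not overlap in either direction.

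Among 18 genes that regulate Fos and Jun transcription, 10 were higher and 8 lower (11 and 7 with upper-quartile scaling), with a median log2 fold change of 0.01. None passed (0 with limma or limma-voom, 3 at an unadjusted p under 0.05). Mef2c, an activity-dependent factor of excitatory neurons and a regulator of Jun, had the largest difference, from 36806 ± 4333 to 31217 ± 1485 normalized counts (SD, n = 3 each), or -0.23 on the log2 scale (limma adjusted p = 0.466). Atf1, a relative of CREB, was at 0.21 (SE 0.11), and Elk4, a partner of serum response factor, at -0.16 (SE 0.10). Chosen after their values were seen, Srf was at 0.09 and Creb1 at -0.03.

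The 15 kinases upstream of AP-1 gave 5 higher and 10 lower genes (6 and 9 with upper-quartile scaling), and the median log2 fold change was -0.02. None passed (0 with limma or limma-voom, 2 at an unadjusted p under 0.05). Rps6ka1 (0.21, SE 0.10) and Rps6ka2 (0.14, SE 0.05), which encode kinases of the RSK family, known to phosphorylate Fos, and Camk4 (-0.08, SE 0.04), which encodes a CREB kinase, differed most. Of 12 genes for the turnover of AP-1 mRNA and protein, 5 were higher and 7 lower, the median was -0.02, and again 0 passed (limma and limma-voom, 4 at an unadjusted p under 0.05). Zfp36, whose product binds AU-rich elements such as that of Fos mRNA and promotes decay, was at -0.26 (SE 0.19), its relative Zfp36l2 at 0.23 (SE 0.07), and Elavl1, whose product stabilizes such mRNAs, at -0.17 (SE 0.05). The groups did not overlap for Zfp36l2 and Elavl1.

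Other genes of the early response were mostly higher, as Fos and Fosb were. Of 29 listed genes other than the AP-1 members, all tested, 23 were higher and 6 lower in the Zmiz1-KO-labelled libraries, and 14 were higher with no overlap between the groups against 1, Myc, that was lower, where 8.1% of all genes tested were higher with no overlap. Their median log2 fold change was 0.23, and 14 had an unadjusted p under 0.05. The share of all genes tested at that cut is not given here, so nothing is read from this count. Earlier results for Egr1, Arc and Klf4 in these libraries were known when the list was drawn up, so its direction is not independent evidence.

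After adjustment over all genes, 3 rose and 0 fell, where 0.165% of all genes passed as higher. Egr1, a zinc finger factor induced beside Fos, had 1621, 1762 and 1691 normalized counts in wildtype and 2465, 2416 and 2453 in the Zmiz1-KO-labelled libraries, a log2 fold change of 0.53 (SE 0.05, limma adjusted p = 3.30e-05). Klf4, a Krüppel-like factor, rose from 164 ± 21.5 to 260 ± 14.7 (SD, n = 3 each; log2 fold change 0.67, limma adjusted p = 0.0305). Arc, a synaptic gene induced by activity, rose from 483 ± 31.8 to 639 ± 41.4 (SD, n = 3 each; log2 fold change 0.40, limma adjusted p = 0.0444). Ptgs2, with 17.0 ± 7.96 and 27.9 ± 7.00 normalized counts (SD, n = 3 each), had the largest estimate and overlapping groups (0.77, SE 0.41). Without wildtype replicate 1, which was lowest in Fos and Fosb, 21 of the 29 genes were higher and 8 lower, and Egr1 and Klf4 passed. Egr1 alone passed without wildtype replicate 3 or without replicate 1 or 3 labelled Zmiz1-KO. Arc did not pass with limma-voom, without robust estimation or with any of the 6 libraries left out.

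**Figure D5:**
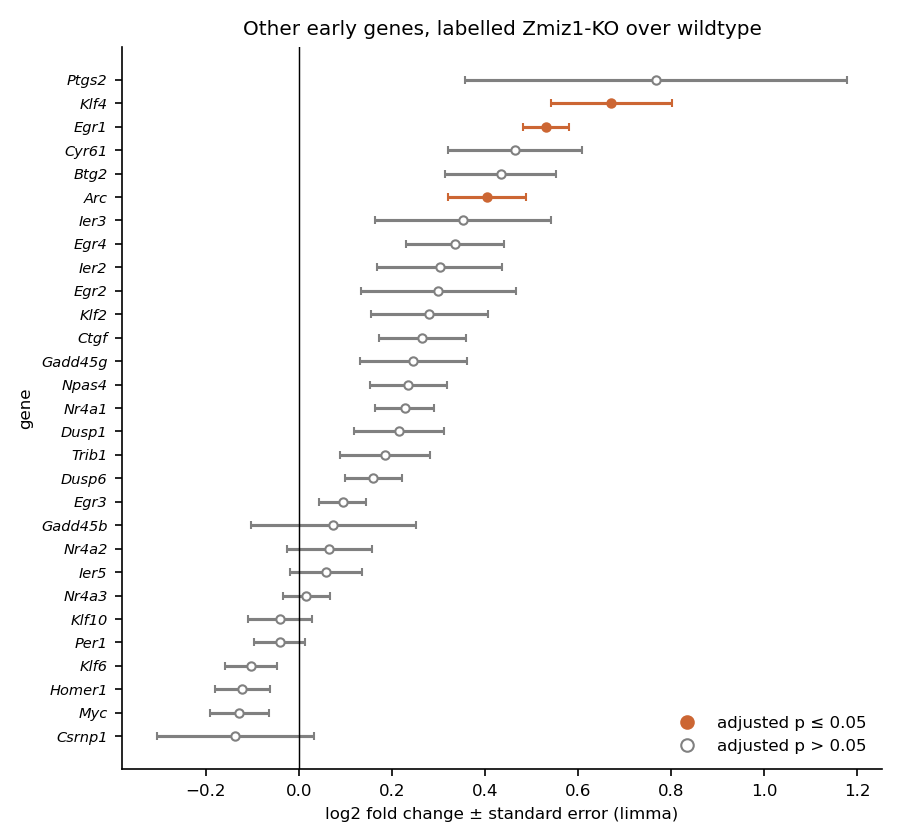
Log2 fold change ± standard error (limma), libraries labelled Zmiz1-KO over wildtype (horizontal axis), for 29 early genes outside the AP-1 family, in order of the estimate. Filled orange points mark Egr1, Klf4 and Arc, which passed an adjusted p of 0.05, and 23 of the 29 estimates are above 0.

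Of 22 genes reported elsewhere as AP-1 targets, 19 were tested, of which 17 were higher and 2 lower, with a median log2 fold change of 0.13. None passed (0 with limma or limma-voom, 1 at an unadjusted p under 0.05), and without wildtype replicate 1 the split was 15 and 4. Penk, the enkephalin precursor gene, was at 0.46 (SE 0.21), and Timp1, an inhibitor of metalloproteinases, at 0.46 (SE 0.37). Penk had 1498, 2344 and 2322 normalized counts in wildtype and 2639, 2913 and 2758 in the Zmiz1-KO-labelled libraries, and is also an abundant transcript of striatal neurons. Il6, Mmp3 and Mmp13 were too low to test. Mmp13, a collagenase gene named after its values were seen, was listed at 0 in all 3 wildtype libraries and at 25.9, 5.52 and 4.01 in replicates 1, 2 and 3 labelled Zmiz1-KO.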

How the data were processed

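Total RNA of P7 cortex was sequenced in 3 wildtype and 3 Zmiz1-KO libraries, grouped by their titles, with unstranded libraries (TruSeq RNA Library Prep Kit v2). The authors aligned reads to mm10 with STAR in Illumina BaseSpace and normalized the counts per gene with DESeq2, and deposited the normalized signal values used here, called normalized counts. Versions and the gene annotation are not given in the sources used here. Low values fall near multiples of a step of 1.83 to 2.11, so reads per library are estimates, and counting errors derived from them cover counting only. Whole reads were not recovered, so no count model was run.

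Values were log2(value + 1) transformed, genes reaching 10 in 3 or more libraries were kept, and the groups were compared by limma 3.58.1 in R 4.3.3, using a variance trend and robust estimation, and p values were two-sided and adjusted over 15800 genes by the Benjamini-Hochberg method, at a threshold of 0.05. Fold changes are on the log2(value + 1) scale, which understates those of low genes. An exact permutation test of 3 against 3 libraries cannot go below p = 0.1. Counts of listed genes at an unadjusted p under 0.05 (limma) are given without the share over all genes tested, so nothing is read from them. The labels do not say that libraries are separate animals, so p values measure the spread between these libraries. The fit was also run on simulated counts with the same variance setting for every gene, which cannot show its error rate on these data.

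The members and all gene lists were chosen with earlier results of these data known. Named genes are the members, Zmiz1, Xist, from each list the genes past the threshold and the 3 with the largest absolute log2 fold change, and the 5 genes most correlated with Fos, Fosb and Junb. The values of some of these genes are not reported here, although counts and sums over lists include them. Coordinates, exons and 75-base stretches come from GENCODE release M21, and promoters, which matched 6 of the 7 members, from RefSeq. Markers of astrocytes, oligodendrocytes, microglia, endothelium, choroid plexus and red blood cells were also summed. The alternatives were 2 other pseudocounts, 2 other filters, 2 scalings, limma-voom, no robust estimation, the replicate number as a block, a covariate for Xist, an adjusted p of 0.1, the longest transcript as length, and each library left out. Plots were made in Python 3.11.15 using matplotlib 3.10.9.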

Additional observations from a re-analysis of the deposited data

How the results depend on the processing

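With 3 libraries per group and 22 to 29 reads of Fosb per wildtype library, the spread of Fosb within groups is near that of counting alone. No alternative turned the sign of a member's log2 fold change, though several, such as the filters, the replicate block and the Xist covariate, cannot (Fosl1 0.16 to 0.35, Fosl2 0.08 to 0.16, Jun 0.05 to 0.11, Junb 0.11 to 0.18, Jund 0.08 to 0.11). The 2 members past the threshold became 1, Fos, with no filter, limma-voom, no robust estimation or a covariate for Xist, and 1 to 2 with a library left out. The genes past the threshold, 65 in all, became 17 without robust estimation, 168 with the replicate block, 106 at an adjusted p of 0.1, and 12 (without replicate 3 labelled Zmiz1-KO) to 151 (without replicate 2 labelled Zmiz1-KO) with a library left out. Regulators of Fos and Jun went from 0 to 1, Mef2c, with the replicate block, and 0 to 1 with a library left out (Mef2c without wildtype replicate 2). Other early genes went from 3 to 1, Egr1, without robust estimation, and 1 to 2 with a library left out, and Btg2 passed without wildtype replicate 2. The cause of these moves was not tested. Deviations from the group means showed little correlation between libraries of the same number (r = -0.0051, -0.11 and -0.0063). With 3 libraries per group this cannot show whether the numbers pair the samples, which was not tested. The median-ratio factors were 1.002 in every library, so that scaling changed no call.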

Other observations

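Of the marker lists not described above, astrocyte genes summed to 40371 to 42689 normalized counts in wildtype and 38632 to 40602 in the Zmiz1-KO-labelled libraries, and 1 of the 6, Aqp4, the astrocyte water channel gene, fell (log2 fold change -0.29, limma adjusted p = 0.00499). Oligodendrocyte lineage genes summed to 10391 to 11789 and 9577 to 10026, microglial genes to 3609 to 3879 and 3552 to 3704, endothelial genes to 5583 to 5826 and 5677 to 6101, and red blood cell genes to 8378 to 12198 and 8042 to 9117. Choroid plexus genes differed most between libraries of 1 group, with 299, 8246 and 6282 in wildtype and 3190, 326 and 4798 in the Zmiz1-KO-labelled libraries. Fos was at 402 in replicate 2 labelled Zmiz1-KO and at 175 in wildtype replicate 1, the pair of libraries lowest in choroid plexus genes. The part of choroid plexus in the Fos values was not tested.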
